A study of Mus musculus with 24 samples.

Results

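The replication-dependent histone genes of the mouse were examined in organ of Corti (OC) explants. Members were the Entrez gene rows whose current symbol is H1f1 to H1f6 or a numbered H2ac, H2bc, H3c or H4c gene. Of 64 symbols of this form, 63 were in the table of 24454 identifiers. They comprised 6 H1, 17 H2A, 16 H2B, 12 H3 and 12 H4 genes. Their former names begin with Hist1 or Hist2, but no row was taken by a former name alone.

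H2A, H2B, H3 and H4 are the core histones around which DNA is wound in the nucleosome, and H1 is the linker histone that binds the DNA between nucleosomes. The replication-dependent genes supply these proteins when DNA is copied in S phase, and their mRNAs usually end in a conserved stem-loop bound by SLBP instead of a poly(A) tail. Replacement histones, encoded elsewhere with ordinary polyadenylated mRNAs, are made independently of replication. The sensory hair cells and supporting cells of the early postnatal OC have largely left the cell cycle, but explants also hold other cells that can divide.

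Explants came from 5-day-old wild type C57BL/6N mice of both sexes and were kept in culture medium with serum for 24 h before treatment. Culture then went on for 6 or 24 h, either drug-free (CTRL), with 50 µM gentamicin (GM), an aminoglycoside antibiotic toxic to hair cells, with 10 µM pioglitazone (PIO), a drug that activates the nuclear receptor PPAR-γ, or in the presence of both drugs (PIO+GM). A group, of which there were 8, had 3 libraries of total RNA, 24 in all, each from 6 pooled OCs. The study asked which signaling pathways these treatments change. In pooled explants, fewer cells of a type and less RNA per cell cannot be told apart, and sources do not state whether libraries of a group came from separate litters, so p-values measure only the spread between these libraries.

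Library totals ranged from 7211357 to 15548856 counts, so that 3 counts corresponded to between 0.193 and 0.416 on the counts-per-million (CPM) scale, which covers counting error only. The 20 hair cell markers, among them Myo7a and Pou4f3, summed to between 596 and 1230 CPM and the 19 supporting cell markers, among them Sox2, to between 6236 and 14706 CPM, with no marker of either list at 0 in a whole group. Members took between 0.0382% and 0.160% of a library's counts. A member or gene was tested where edgeR's expression filter kept it, which left 16317 genes and 59 of the 63 members: 5 H1, 15 H2A, 15 H2B, 12 H3 and 12 H4 genes. H1f6, H2ac1, H2ac12 and H2bc1 were not tested, with 76, 1, 97 and 37 counts over all libraries. The tested members had between 133 and 21805 counts over all libraries, and 38 members had at least 10 counts in every library.

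The members lay in 3 clusters of the GRCm38 assembly. A cluster on chromosome 3, between positions 96219885 and 96270192, held 10 members. On chromosome 13, 22 members lay between 21715711 and 22043658 and 31 between 23531044 and 23934913. Members are short genes, with 45 of 63 listed at under 700 bases in the counts table. Of all 254589 member counts, H4 genes held 34.2%, H2B genes 27.6%, H1 genes 21.6%, H3 genes 10.9% and H2A genes 5.66%. The 5 members with most counts held 37.9%. These shares and the sums given below include both rows of 4 pairs of near copies, described below. With each pair counted once, the sum of PIO replicate 2 at 24 h was 1488 CPM instead of 1602 CPM. Per length, as RPKM (counts scaled by library size and by the length column of the table), the mean level over 24 libraries was 178 for H4c4, 153 for H4c8, 124 for H2bc18, 81.5 for H1f4, 69.3 for H2bc8 and 63.8 for H1f2. In all, 34 members were above a mean of 10 RPKM and 5 were below 1 RPKM.

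The 3′ stem-loop that marks this gene family was searched in GENCODE transcripts as a stem of 6 base pairs opening with GG, closed by a loop of 4 bases. It was found in transcripts of 43 of the 63 members and in 131 of 141767 transcripts in all, or 0.0924%. Some of these annotated transcripts run on past the match, with 1153 bases after it for H1f4, 454 for H4c3 and 365 for H3c7. The core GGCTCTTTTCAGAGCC was shared by 24 members of the H1, H2A, H2B and H3 classes. The core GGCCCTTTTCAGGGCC was found in 6 members, all H4 genes, and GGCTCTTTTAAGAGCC in 6 others. The sequences below are those of members described later, with the stem-loop in capitals and flanking bases in lower case, to show how little the element varies between classes.
H1f4: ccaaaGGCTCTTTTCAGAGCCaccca
H2ac20: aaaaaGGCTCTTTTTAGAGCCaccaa
H3c1: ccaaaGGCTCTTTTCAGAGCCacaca
H3c7: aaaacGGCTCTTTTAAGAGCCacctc
H4c3: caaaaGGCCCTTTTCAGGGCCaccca
H4c8: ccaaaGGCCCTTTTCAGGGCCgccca
H4c2: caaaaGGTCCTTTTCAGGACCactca
No match lay in the transcripts given for H2bc4, H2bc18 and H2bc21, 3 H2B members described below, which says only that these letters are not in those transcripts.

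RefSeq promoter sequences (GRCm38.p6, from 250 bases before to 50 after the start) were matched for 58 members, with 59 promoters. Both strands were searched, and none of the 3 motifs contains another. CCAAT, the box bound by NF-Y, was in every H1, H2A, H2B and H3 promoter but in 27.3% of the H4 promoters, against 37.4% of all 32851 promoters. TATAAA was in 57.6% of the members' promoters and 13.6% of all, with 72.7% of the H4 promoters the highest share of a class. The octamer ATTTGCAT, bound by OCT-1 and known from H2B promoters, was in 46.7% of the H2B and 35.3% of the H2A promoters, in no H1, H3 or H4 promoter, and in 1.74% of all. The promoters of the H1, H2B and H4 members with most counts are given as single examples, not as the layout of their class, with the motifs in capitals on either strand. They lie at chr13:23622509-23622808 (minus strand), chr3:96269450-96269749 (plus strand) and chr13:23530794-23531093 (plus strand).
H1f4: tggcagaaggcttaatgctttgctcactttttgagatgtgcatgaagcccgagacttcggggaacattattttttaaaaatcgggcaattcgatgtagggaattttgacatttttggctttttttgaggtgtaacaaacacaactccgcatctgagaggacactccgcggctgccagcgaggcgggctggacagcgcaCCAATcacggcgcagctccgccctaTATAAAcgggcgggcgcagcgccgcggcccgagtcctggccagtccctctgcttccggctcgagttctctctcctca
H2bc18: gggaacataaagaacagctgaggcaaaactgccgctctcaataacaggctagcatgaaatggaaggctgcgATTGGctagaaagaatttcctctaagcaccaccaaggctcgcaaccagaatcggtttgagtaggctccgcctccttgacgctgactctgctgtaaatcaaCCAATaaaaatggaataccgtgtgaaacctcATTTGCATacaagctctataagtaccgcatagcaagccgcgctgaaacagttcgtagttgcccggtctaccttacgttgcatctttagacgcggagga
H4c8: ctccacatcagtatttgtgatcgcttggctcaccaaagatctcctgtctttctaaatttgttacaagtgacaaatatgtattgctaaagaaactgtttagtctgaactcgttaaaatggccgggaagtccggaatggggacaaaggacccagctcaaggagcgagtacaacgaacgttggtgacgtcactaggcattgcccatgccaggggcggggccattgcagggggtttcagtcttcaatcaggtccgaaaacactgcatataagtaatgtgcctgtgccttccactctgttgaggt
The H1f4 promoter holds CCAAT and TATAAA, that of H2bc18 holds CCAAT and the octamer, and that of H4c8 holds none of the 3 motifs, unlike most H4 promoters.

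Many members of a class are closely alike in sequence, so that reads can be shared between their rows, while others share little. Cut into windows of 76 bases, the read length, the transcripts of 45 members shared 20% or more of their windows with another gene, and those of 7 shared 90% or more. For 23 members another annotated gene overlapped. Some rows were near copies of one another: H3c14 and H3c15 had the same count in 24 of 24 libraries, H2ac18 and H2ac19 in 23, and H2ac23 and H2ac24 in 22. H4c17 and H4c18 had the same count in 0 libraries but differed by at most 33 counts, with 8231 and 8488 in all. H2bc23 had the same count in 24 libraries as H4bc24, a row that the naming rule did not take. The levels of these single members are therefore uncertain. Among the members described below, H2bc21 and H1f1 shared no window, H1f3 1.44%, H1f4 5.55%, H1f2 6.60%, H2ac6 9.60%, H4c3 16.8%, H2ac20 18.9% and H2bc4 27.0%, mostly with H2bc8. Others shared more, with 38.1% for H3c1, 41.7% for H3c7, 42.3% for H4c8, 48.1% for H4c2, 55.3% for H2ac4, 70.1% for H2ac10, 92.6% for H2ac24 and 100% for H2ac19. These shares are over GENCODE transcripts, which for 12 members were over 1.5 times as long as the length in the counts table. If all shared windows lay within the counted length, the share could be up to 15.1% for H1f3 and H1f2, 14.6% for H1f4, 21.4% for H2ac20, 41.7% for H4c3, 41.8% for H2bc4 and 56.1% for H2ac6. H2bc18 shared no window with a gene elsewhere, but its whole transcript lay within the annotated genes Gm20628 and Gm42743. Its reads and theirs cannot be told apart by sequence or position, and the strands of these genes were not compared.

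More members differed with time in culture than with either drug, as was the case for all genes, of which between 12.5% and 17.6% were higher with time and at most 0.601% with a drug. The summed level of all members was 389, 522 and 670 CPM in the 3 CTRL libraries at 6 h and 548, 1310 and 779 CPM at 24 h. In GM it was 498, 397 and 728 CPM at 6 h and 670, 1577 and 1019 CPM at 24 h. In PIO it was 434, 736 and 735 CPM at 6 h and 1188, 1602 and 1013 CPM at 24 h. The 24 h libraries lay above all 6 h libraries in PIO, and overlapped with them in CTRL and GM. In PIO+GM the sums were 469, 779 and 409 CPM at 6 h and 997, 815 and 736 CPM at 24 h, which overlapped as well. The ratio of the 24 h to the 6 h mean was 1.67 ± 0.864 in CTRL, 2.01 ± 1.06 in GM, 2.00 ± 0.725 in PIO and 1.54 ± 0.604 in PIO+GM (SD propagated from both groups, n = 3 against 3).

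**Figure D1:**
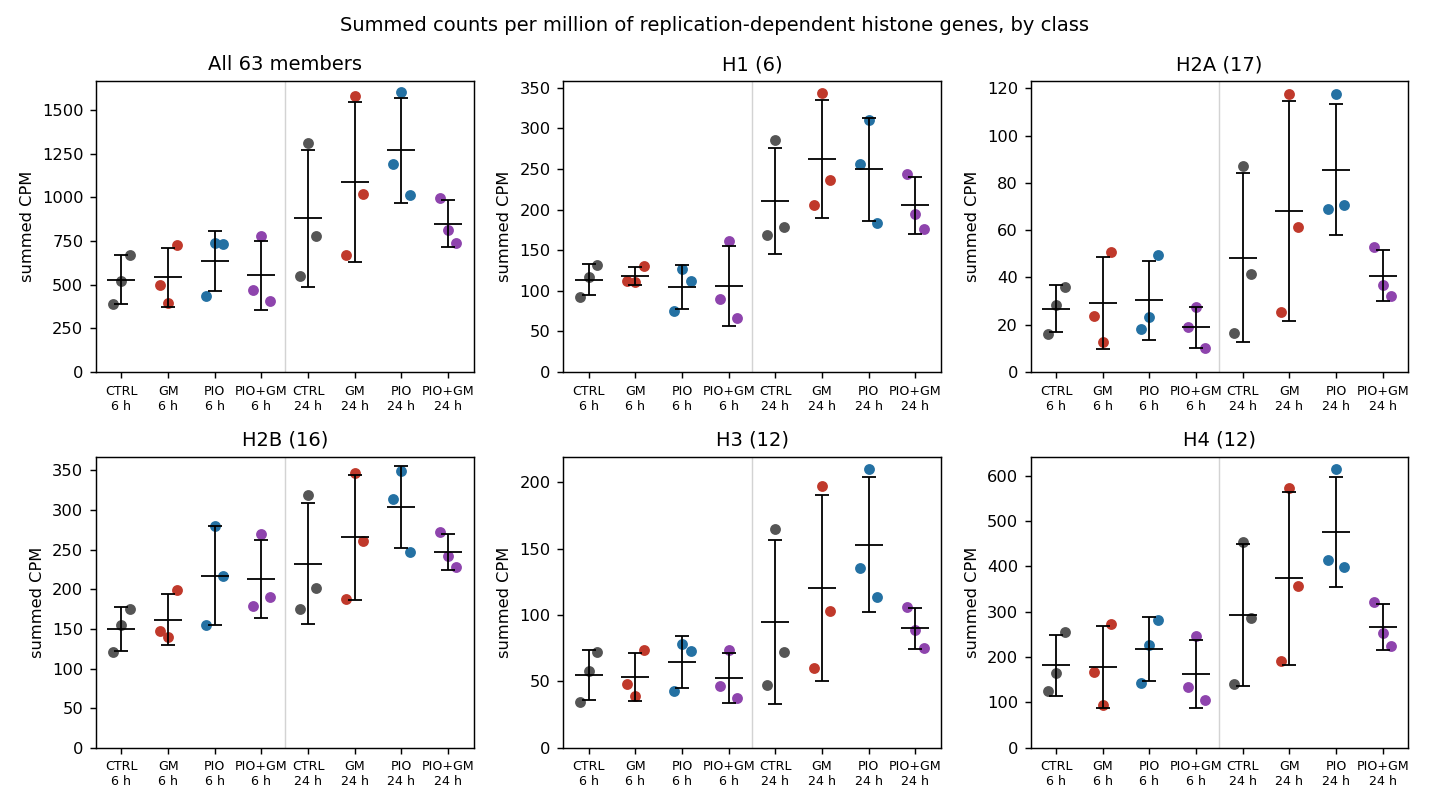
Summed CPM (vertical axis, from 0) of all members and of each histone class in the 24 libraries by treatment and time, where points are libraries, the horizontal line is the mean and the bars are 1 SD (n = 3). The 24 h means lie above the 6 h mean of the same treatment in every panel, but libraries of 1 group spread widely, from 548 to 1310 CPM for all members in CTRL at 24 h.

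Every class had a higher mean at 24 h in each treatment. In PIO, H1 genes, the linker histones, went from 105 ± 26.7 to 250 ± 63.4 summed CPM, H3 genes from 64.5 ± 19.3 to 153 ± 50.9 and H4 genes from 218 ± 69.9 to 476 ± 121 (mean ± SD, n = 3), as values without a test. H2A genes, the least abundant class, went from 30.3 ± 16.8 to 85.6 ± 27.6 and H2B genes from 217 ± 62.7 to 304 ± 51.8. The share of H2B among the member CPM of a library ranged from 21.8% to 46.4%, and that of H4 from 23.9% to 39.3%.

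By edgeR's quasi-likelihood test with Benjamini-Hochberg adjustment over all genes, 7 members were higher at 24 h than at 6 h in CTRL, against 14.8% of all genes tested, so that the share of members was no larger than the background. In GM 11 members were higher (12.5% of all genes) and in PIO+GM 4 (17.6%). In PIO 23 of the 59 members were higher, against 13.2% of all genes. No member was lower in any of the 4 comparisons, while 13.2%, 11.7%, 15.8% and 17.0% of all genes were lower in CTRL, GM, PIO and PIO+GM. The direction was nearly uniform whether or not a member passed the threshold. The fitted log2 fold change was above 0 for 58, 59, 57 and 55 of the 59 members in CTRL, GM, PIO and PIO+GM, against 52.4%, 51.4%, 50.6% and 50.4% of all genes. Its median over the members was 0.83, 1.23, 1.38 and 0.91, against 0.03, 0.02, 0.01 and 0.01 over all genes. The 24 h libraries lay above all 6 h libraries for 8 members in CTRL (24.1% of all genes), 15 in GM (22.7%), 50 in PIO (20.5%) and 33 in PIO+GM (22.4%).

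These counts depended on settings and on single libraries. With the replicate number as a block, 38 members were higher in PIO (14.4% of all genes) and 10 in PIO+GM (18.4%), and with DESeq2 21 in GM (13.8%) and 8 in PIO+GM (17.8%). In a fit of only the libraries compared, 15 of 56 were higher in PIO (4.36%) and 14 of 54 in PIO+GM (12.9%). With at least 10 counts in every library, 14 of 38 were higher in PIO (13.5%), and without a filter 4 of 63 in CTRL (8.49%). In CTRL the count was 11 without 24 h replicate 1 (10.8% of all genes), 4 without 24 h replicate 3 (10.3%) and 3 without 24 h replicate 2 (11.6%), 6 h replicate 1 (11.9%) or 6 h replicate 2 (8.06%), and the median fell to 0.21 without 24 h replicate 2. In GM it was 26 without 24 h replicate 1 (8.84%) or 6 h replicate 3 (11.5%), 6 without 24 h replicate 3 (9.46%), 5 without 6 h replicate 1 (8.68%) and 2 without 24 h replicate 2 (9.05%) or 6 h replicate 2 (6.51%). In these last 4 fits the members' share, between 3.33% and 10.2%, was near or below that of all genes. In PIO it was 36 without 6 h replicate 3 (17.6%), 11 without 24 h replicate 1 (8.88%), 7 without 6 h replicate 2 (7.48%), 6 without 24 h replicate 2 (8.77%) and 5 without 6 h replicate 1 (9.49%). The members' share, 39.0% with all libraries, was then 10.2% without 24 h replicate 2 and 8.33% without 6 h replicate 1, so that it no longer stood apart from that of all genes. In PIO+GM it was 2 without 6 h replicate 3 (16.2%), 24 h replicate 1 (13.2%) or 24 h replicate 2 (13.8%). The medians of these fits stayed above 0, between 0.21 and 1.66.

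**Figure D2:**
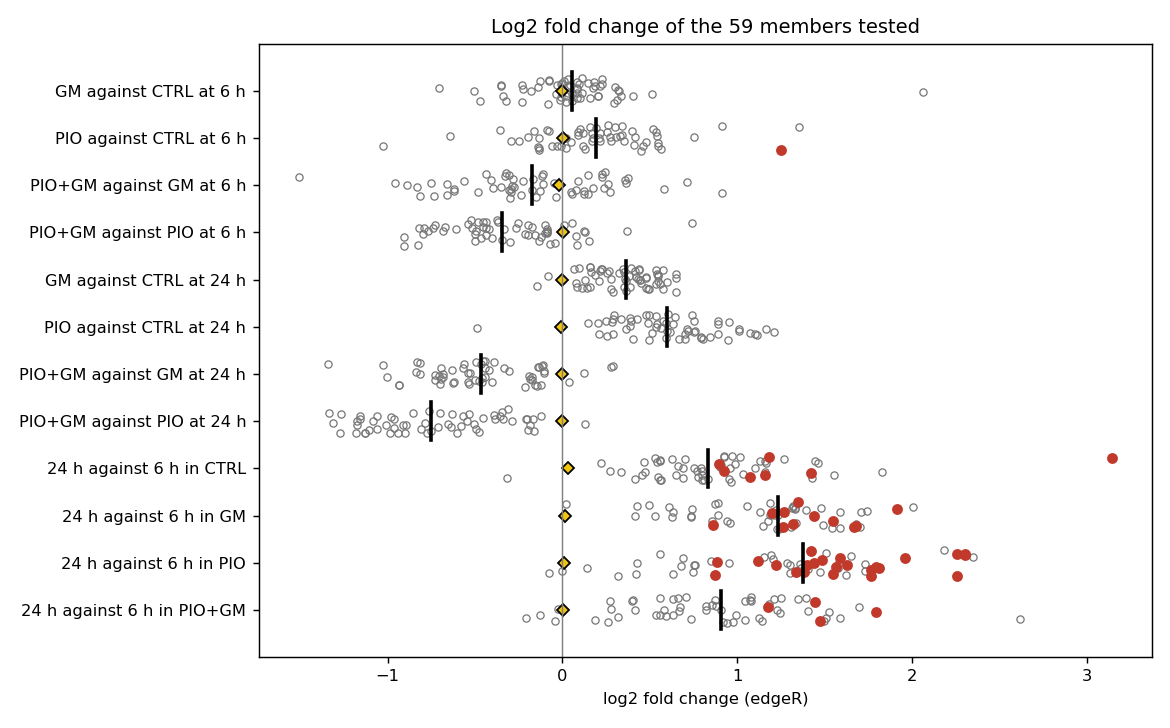
Log2 fold change from edgeR (horizontal axis) of each of the 59 members tested in the 8 drug and 4 time comparisons, where open points did not and filled red points did pass an adjusted p of 0.05, the vertical bar is the median of the members and the diamond the median of all genes tested. Members lie almost entirely above 0 in the time comparisons, with medians of 0.83 to 1.38, and to opposite sides of 0 in the 24 h drug comparisons, where none passed.

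Over the 4 time comparisons, 29 members passed in at least 1: 5 of 5 H1, 6 of 15 H2A, 7 of 15 H2B, 6 of 12 H3 and 5 of 12 H4 genes. By the same rule 24.7% of all genes were higher in at least 1 treatment. H1f3 and H3c1 passed in all 4, and H1f1, H1f2, H1f5 and H4c6 in 3. The other 30 members passed in none.

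H1f3, a somatic linker histone named here after its values were seen, measured 14.5, 17.6 and 21.4 CPM in CTRL at 6 h and 35.6, 54.6 and 31.3 CPM at 24 h. In PIO it measured 14.0, 15.8 and 20.8 CPM at 6 h and 53.3, 63.3 and 31.9 CPM at 24 h. The groups did not overlap in any of the 4 treatments. Its log2 fold change was 1.18 (SE 0.30, adjusted p = 0.00709 by edgeR) in CTRL, 1.32 (SE 0.30, 0.00377) in GM, 1.55 (SE 0.31, 0.00127) in PIO and 1.45 (SE 0.31, 0.00149) in PIO+GM. It passed under every alternative run, with an adjusted p of at most 0.0478.

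H3c1 encodes the canonical H3 protein and measured 1.93, 3.07 and 5.57 CPM in PIO at 6 h and 12.3, 19.0 and 10.4 CPM at 24 h. In PIO+GM it measured 2.97, 2.33 and 2.30 CPM at 6 h and 11.5, 7.80 and 7.12 CPM at 24 h. All 24 h libraries lay above the 6 h libraries in both treatments and in GM, while in CTRL the lowest 24 h library overlapped. The log2 fold change was 1.96 (SE 0.51, edgeR adjusted p = 0.00756) in PIO, 1.79 (SE 0.52, 0.0127) in PIO+GM, 1.55 (SE 0.50, 0.0309) in GM and 1.42 (SE 0.51, 0.0423) in CTRL. In CTRL the change did not pass without 6 h replicate 1, 6 h replicate 2 or 24 h replicate 2, without which its log2 fold change lay between 0.75 and 1.35.

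Among the other linker histones, H1f4, the H1 member with most counts, measured 36.7, 52.2 and 42.7 CPM in PIO at 6 h and 82.9, 90.3 and 67.7 CPM at 24 h. The groups did not overlap, and the log2 fold change was 0.87 (SE 0.24, edgeR adjusted p = 0.0123). In GM it was 0.86 (SE 0.24, 0.0142), and in CTRL and PIO+GM it was 0.56 and did not pass. H1f2 measured 23.6, 28.3 and 30.7 CPM in CTRL at 6 h and 44.6, 83.8 and 56.4 CPM at 24 h, again without overlap. Its log2 fold change was 1.16 (SE 0.37, adjusted p = 0.0235) in CTRL, 1.35 (0.0116) in GM, 1.40 (0.00877) in PIO and 0.94 (0.0526) in PIO+GM. The H1f4 call in PIO was lost without 6 h replicate 1, and the H1f2 call in CTRL without 6 h replicate 1, 6 h replicate 2 or 24 h replicate 2.

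The larger fold changes were those of core histone members of low level in PIO. H4c2 measured 1.14, 1.27 and 3.26 CPM at 6 h and 6.75, 14.0 and 7.08 CPM at 24 h, a log2 fold change of 2.26 (SE 0.63, edgeR adjusted p = 0.0124). H2ac4 measured 0.965, 0.741 and 2.75 CPM at 6 h and 5.33, 12.1 and 5.36 CPM at 24 h, a log2 fold change of 2.30 (SE 0.72, 0.0228). H2ac24 measured 0.351, 0.529 and 1.66 CPM at 6 h and 2.96, 7.16 and 3.08 CPM at 24 h, a log2 fold change of 2.31 (SE 0.81, 0.0397). For all 3 genes the 24 h libraries lay above those at 6 h, with replicate 2 highest at 24 h and replicate 3 highest at 6 h, and each call was lost without 6 h replicate 1, 6 h replicate 2 or 24 h replicate 2. H2ac23, the near copy of H2ac24, changed by 2.26 (0.0418) and adds nothing independent. H2ac10 passed in CTRL (adjusted p = 0.0483), but its 6 h libraries held 0, 1 and 2 counts, against 3, 21 and 8 at 24 h, and no fold is given.

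Not every abundant member passed. H4c8 measured 34.7, 50.0 and 72.4 CPM in PIO at 6 h and 111, 164 and 109 CPM at 24 h, without overlap, for a log2 fold change of 1.29 (SE 0.50) that missed the threshold (edgeR adjusted p = 0.0572). H2ac19, the H2A member with most counts, measured 4.30, 3.81 and 11.9 CPM in PIO at 6 h and 13.6, 21.8 and 14.7 CPM at 24 h (log2 fold change 1.30, SE 0.68, adjusted p = 0.152). H3c7, the H3 member with most counts, measured 10.7, 24.7 and 13.2 CPM at 6 h and 20.6, 23.1 and 21.1 CPM at 24 h in PIO, which overlapped (0.42, SE 0.31, 0.315). The overlap came from 6 h replicate 2 alone. H4c14 was the one member with a lower fitted level at 24 h in CTRL, with a log2 fold change of -0.32 (SE 0.32, 0.489), and was named after its values were seen. It measured 10.1, 11.1 and 19.8 CPM at 6 h and 8.17, 14.8 and 9.86 CPM at 24 h. The groups overlapped, and the direction rested on 6 h replicate 3.

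H2bc4, H2bc18 and H2bc21 had smaller fold changes with time in PIO than the median member. In CTRL, H2bc21 rose from 12.8, 7.85 and 9.98 CPM at 6 h to 19.8, 19.2 and 18.1 CPM at 24 h, a log2 fold change of 0.89 (SE 0.19, edgeR adjusted p = 0.00148), while in PIO its change was 0.32 (SE 0.18, 0.20). H2bc4 rose in CTRL by a log2 fold change of 0.93 (SE 0.26, 0.0131), a call lost without 6 h replicate 3 or 24 h replicate 3, while in PIO its change was -0.07 (SE 0.26, 0.856). H2bc18 changed by 0.41 (SE 0.30, 0.328) in CTRL and by 0.00 (SE 0.30, 0.998) in PIO. No interaction of drug and time passed for these genes, as given below.

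The median change by class was lowest for H2B in GM, PIO and PIO+GM, at 0.89, 0.85 and 0.63, and highest for H2A in PIO, at 1.63. Over the 16 tested members that shared under 20% of their windows, 3, 6, 8 and 3 were higher in CTRL, GM, PIO and PIO+GM, with medians of 0.72, 0.92, 1.04 and 0.58. Of these 16, 12 also stayed under 20% if all shared windows were counted ones, of which 3, 5, 6 and 3 were higher, with medians of 0.68, 0.80, 0.78 and 0.48. Over the 43 members that shared 20% or more, 4, 5, 15 and 1 were higher, with medians of 0.91, 1.31, 1.44 and 1.04. With each of these 4 pairs of members (H3c14 and H3c15, H2ac18 and H2ac19, H2ac23 and H2ac24, H4c17 and H4c18) counted once, 7, 11, 21 and 4 of 55 were higher. Beside all these counts, 14.8%, 12.5%, 13.2% and 17.6% of all genes were higher in CTRL, GM, PIO and PIO+GM. The 3 of 16 in CTRL and PIO+GM were thus near that share, and 1 of 43 in PIO+GM was below it. The 42 tested members with a stem-loop match had medians of 0.80, 1.23, 1.40 and 0.93 in CTRL, GM, PIO and PIO+GM. The 17 without had medians of 0.90, 1.26, 1.36 and 0.71. This split follows the transcripts given, not the genes. Some transcripts without a match are short, such as those of H2bc13 (381 bases) and H4c12 (312 bases), and may end before the stem-loop. The medians therefore cannot compare genes with and without a stem-loop.

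Within a group, 1 library was often the highest or lowest for most members. CTRL replicate 2 at 24 h was the highest of its group for 57 of the 59 members, against 41.2% of all genes. GM replicate 2 at 24 h was highest for 57 members (39.3% of all genes) and PIO replicate 2 at 24 h for 55 (39.7%). At the low end, GM replicate 1 at 24 h was lowest for 54 members (27.3% of all genes) and CTRL replicate 1 at 6 h for 53 (30.0%). In the other groups the library most often highest was so for between 39 and 55 of the 59 members, against 24.4% to 39.1% of all genes. This did not hold for each member, since PIO replicate 2 at 6 h, in which H2bc18 stood apart, was highest for 19 members against 39 for replicate 3. Members are no replicates of a condition.

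Other RNAs without a poly(A) tail varied alongside. Their list held 23 genes, of which 16 were in the table and 10 were tested, and 94.7% of its level was Rpph1, the RNA of ribonuclease P, and Rmrp, the RNA of ribonuclease MRP, both named after their values were seen. Its summed level ranged from 2795 to 11063 CPM. In 8 of 8 groups the library with the highest summed histone level was also the one with the highest level of this list, and in 6 of 8 all 3 libraries stood in the same order. By edgeR none of its 10 tested genes was higher at 24 h than at 6 h in any treatment, and Rnu11 was lower in PIO (log2 fold change -1.55, SE 0.55, adjusted p = 0.0406). Rpph1 changed by 0.48 (SE 0.39, adjusted p = 0.368) and Rmrp by 0.74 (SE 0.44, 0.215) in PIO. The part of this variation in the histone results was not tested.

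**Figure D3:**
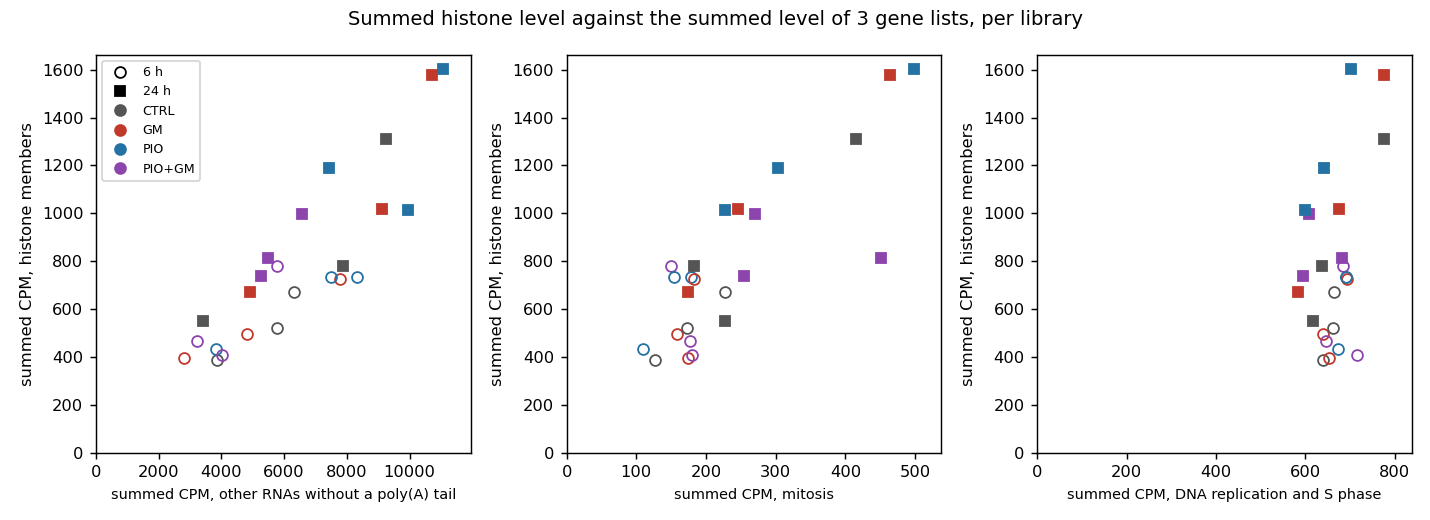
Summed CPM of the histone members (vertical axis) against the summed CPM of 3 gene lists (horizontal axes) in the 24 libraries, colored by treatment, with open circles for 6 h and squares for 24 h. The histone sum lies higher in libraries with more of the other RNAs without a poly(A) tail (2795 to 11063 CPM) and with more of the mitosis genes (110 to 498 CPM), and the S phase list spans 584 to 777 CPM.

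The mitosis list also had medians above 0 with time. By edgeR, 4 of its 20 genes were higher at 24 h in CTRL, 4 in GM, 14 in PIO and 8 in PIO+GM, and none lower, with medians of 0.68, 0.89, 1.16 and 1.02. Beside these and the list counts that follow, 14.8%, 12.5%, 13.2% and 17.6% of all genes were higher and 13.2%, 11.7%, 15.8% and 17.0% lower, so that the mitosis counts in CTRL and GM were near the background. Bub1b, a spindle checkpoint kinase, changed by 0.94 (SE 0.26, adjusted p = 0.0115) in CTRL and 1.51 (SE 0.27, 0.000516) in PIO, and Ccnb1, the mitotic cyclin B1, by 1.80 (SE 0.40, 0.00321) in PIO. Their library with the highest sum was that of the histones in 6 of 8 groups.

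The 40 genes of DNA replication and S phase had calls in both directions, as all genes did. In CTRL 10 were higher and 3 lower, in GM 5 and 2, in PIO 4 and 4, and in PIO+GM 4 and 6, with medians of 0.30, 0.32, -0.04 and -0.03. Their library with the highest sum was that of the histones in 5 of 8 groups, and all 3 libraries stood in the same order in 4 of 8, as they did for the mitosis list. In PIO Tk1, the thymidine kinase of S phase, rose by 2.23 (SE 0.54, edgeR adjusted p = 0.00549), while Pcna, the sliding clamp of the replication fork, fell by 0.83 (SE 0.20, 0.00468), and Pola1, the catalytic subunit of DNA polymerase alpha, fell by 0.68 (SE 0.15, 0.00250) on the log2 scale.

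Genes that make and process histone mRNA mostly did not rise. Of 30 tested, 2, 1, 1 and 2 were higher and 8, 7, 9 and 9 lower at 24 h in CTRL, GM, PIO and PIO+GM, with medians of -0.21, -0.17, -0.25 and -0.22. In PIO, Cstf2, a cleavage factor subunit, fell by 0.43 (SE 0.09, edgeR adjusted p = 0.00186). Ncbp1, a subunit of the nuclear cap-binding complex, fell by 0.86 (SE 0.17, 0.00114) and Cpsf2, a subunit of the cleavage complex, by 0.71 (SE 0.14, 0.00110). Of 26 histone chaperones, 3, 5, 1 and 2 were higher and 8, 7, 7 and 9 lower, with medians between -0.17 and -0.10. Anp32e, a chaperone of H2A.Z, fell by 0.84 (SE 0.13, 0.000223) in PIO and Nap1l1, a chaperone of H2A and H2B, by 0.69 (SE 0.12, 0.000492).

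Of 13 replacement histones, 5, 5, 5 and 6 were higher and 0, 0, 1 and 1 lower, with medians of 0.38, 0.41, 0.41 and 0.51. H2az2, an H2A.Z gene, rose by 1.09 (SE 0.14, edgeR adjusted p = 1.88e-05) in CTRL and by 0.77 (SE 0.14, 0.000526) in PIO. H1f0, the linker histone of non-dividing cells, rose by 0.74 (SE 0.16, 0.00239) in CTRL and 0.58 (SE 0.16, 0.0131) in PIO.

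Marker levels of other cells at both times were as follows. The 15 macrophage markers had a median summed level of 99.1 CPM at 6 h and 170 CPM at 24 h, with 2, 2, 4 and 5 of 15 higher and 0, 0, 2 and 2 lower in CTRL, GM, PIO and PIO+GM, where 14.8%, 12.5%, 13.2% and 17.6% of all genes were higher. The 12 Schwann cell markers went from a median sum of 1545 to 728 CPM, with 4, 6, 4 and 4 lower, and the erythroid markers from 328 to 107 CPM, with 6, 5, 4 and 3 of 6 tested lower, where 13.2%, 11.7%, 15.8% and 17.0% of all genes were lower. Mesenchyme and fibroblast markers summed to a median of 4542 CPM at 6 h and 5411 CPM at 24 h, and neuron markers to 347 and 263 CPM. For mesenchyme and fibroblast markers the library with the highest sum was that of the histones in 5 of 8 groups. For macrophage and erythroid markers it was so in 4 of 8, for Schwann cell markers in 3 and for neuron markers in 2. The library with the lowest macrophage sum was that of the histones in 6 of 8 groups. The part of these cells in the histone results was not tested.

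Of the drugs, PIO was tested against CTRL and, in the presence of GM, against GM. At 6 h in PIO against CTRL, 1 member passed, H2bc4, higher under PIO, where 0.147% of all genes were higher and 0.190% lower. H2bc4, formerly Hist1h2bc, lies at chr13:23684199-23692480 and measured 12.1, 12.9 and 9.02 CPM in CTRL and 22.2, 28.5 and 30.4 CPM in PIO. All 3 PIO libraries lay above the CTRL libraries. The log2 fold change was 1.25 (SE 0.26, edgeR adjusted p = 0.0461). It passed with DESeq2 (0.00175), but not without the filter on low counts (0.0764) or in a fit of these 6 libraries alone (0.469). The call was lost without any one of the 6 libraries, with an adjusted p of 0.135, 0.0838 and 0.124 without CTRL replicate 1, 2 and 3 and of 0.0992, 0.0870 and 0.0673 without PIO replicate 1, 2 and 3.

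In the other groups H2bc4 measured 12.5, 11.9 and 24.1 CPM in GM and 20.2, 27.9 and 24.7 CPM in PIO+GM at 6 h, which overlapped (log2 fold change 0.58, SE 0.26, edgeR adjusted p = 0.173). The overlap came from GM replicate 3 alone. At 24 h H2bc4 measured 18.0, 20.9 and 25.8 CPM in CTRL and 28.4, 26.7 and 21.9 CPM in PIO (0.25, SE 0.26, 0.809). The difference between the effect of PIO at 24 h and at 6 h was -0.999 (SE 0.37, edgeR adjusted p = 0.898). H2bc8, which shares most windows with H2bc4 and is named for that reason, changed by 0.33 (SE 0.28, 0.594) in PIO against CTRL at 6 h.

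H2bc18 stood next to it. It measured 33.1, 39.9 and 46.5 CPM in CTRL, 41.7, 41.8 and 42.9 CPM in GM, 47.7, 128 and 49.7 CPM in PIO and 52.4, 104 and 81.9 CPM in PIO+GM at 6 h. Each library with PIO lay above each library without, and replicate 2 was the highest of both PIO groups. The log2 fold change was 0.91 (SE 0.30, edgeR adjusted p = 0.172) in PIO against CTRL and 0.92 (SE 0.30, 0.0920) in PIO+GM against GM. The first rested largely on PIO replicate 2, at 128 CPM against 47.7 and 49.7 CPM in PIO replicates 1 and 3. Without PIO+GM replicate 2 the second was 0.66. The second passed with DESeq2 (0.0353), with the replicate number as a block (0.0411) and without PIO+GM replicate 1 (0.0166). At 24 h H2bc18 measured 41.7, 68.4 and 48.9 CPM in CTRL and 82.6, 74.5 and 67.6 CPM in PIO, which overlapped (0.50, SE 0.30, 0.619).

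**Figure D4:**
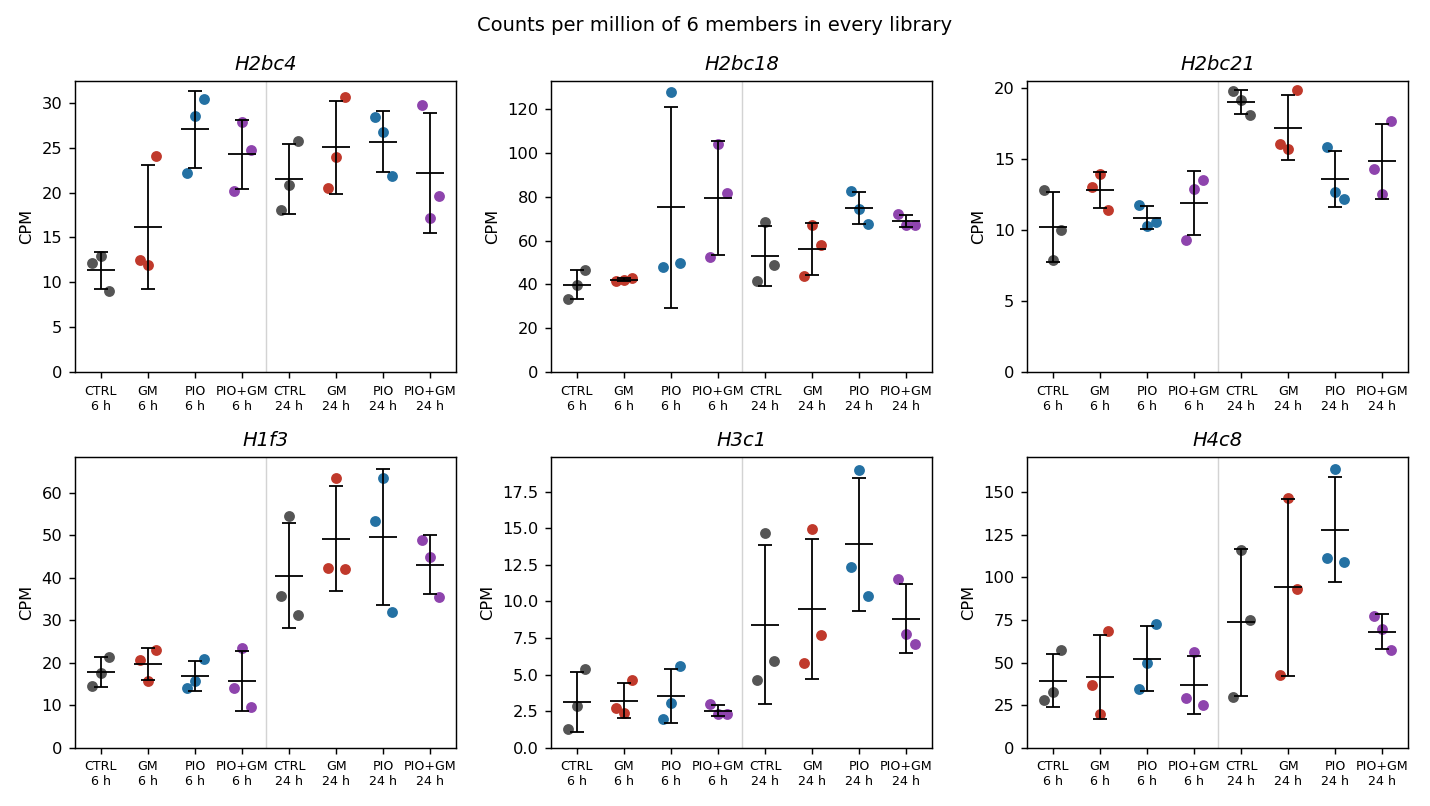
CPM (vertical axes, from 0) of 6 members in the 24 libraries by treatment and time, where points are libraries, the line is the mean and the bars are 1 SD (n = 3). H2bc4 and H2bc18 are higher with PIO than in CTRL at 6 h, H2bc21 is highest in CTRL and GM at 24 h, and H1f3, H3c1 and H4c8 have higher means at 24 h than at 6 h in each treatment.

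No other member passed at 6 h. In PIO against CTRL, 3 members had libraries that did not overlap and were higher (8.68% of all genes), and at an unadjusted p under 0.05 there were 2 higher and 0 lower, against 8.36% and 6.83% of all genes. In PIO+GM against GM no member passed in edgeR, while 0.601% of all genes were higher and 0.723% lower, and H2bc18 alone passed in DESeq2. At an unadjusted p under 0.05, 2 members were higher there and 0 lower (13.1% and 12.0% of all genes). GM against CTRL and PIO+GM against PIO had 0 members and 0% of all genes past the threshold at 6 h, with no member at an unadjusted p under 0.05 (0.962% and 0.527%, then 1.16% and 1.89% of all genes higher and lower), and none by DESeq2. The lowest p in PIO+GM against PIO was that of H2ac20, an H2A gene, with 4.04, 4.66 and 8.10 CPM in PIO and 2.97, 5.14 and 1.89 CPM in PIO+GM (-0.73, SE 0.54, edgeR adjusted p = 0.998). Its value was -0.34 without PIO replicate 3, -0.47 without PIO+GM replicate 3 and -1.19 without PIO+GM replicate 2. The lowest in GM against CTRL was that of H2bc4 (0.52, SE 0.26, edgeR adjusted p = 1.00), which was 0.11 without GM replicate 3. The medians over the members were 0.06 in GM against CTRL, 0.19 in PIO against CTRL, -0.17 in PIO+GM against GM and -0.34 in PIO+GM against PIO. With 1 library left out these medians lay between -0.34 and 0.29, between -0.07 and 0.47, between -0.43 and 0.24 and between -0.58 and -0.04, so that 3 of the 4 changed sign. The sign changed without CTRL replicate 1 (-0.16) or GM replicate 3 (-0.34) in GM against CTRL. It changed without CTRL replicate 1 (-0.02) or PIO replicate 3 (-0.07) in PIO against CTRL, and without GM replicate 3 (0.24) or PIO+GM replicate 3 (0.01) in PIO+GM against GM.

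At 24 h the members lay to one side of 0 in each drug comparison without passing the threshold. In GM against CTRL 57 of 59 had a fold change above 0 (49.2% of all genes), with a median of 0.37, and in PIO against CTRL 58 (48.6%), with a median of 0.60. In PIO+GM against GM only 4 were above 0 (50.1%), with a median of -0.47, and in PIO+GM against PIO 1 (49.5%), with a median of -0.75. These comparisons share groups, so their directions are not independent of each other. The median of GM against CTRL turned to -0.12 and that of PIO+GM against GM to 0.02 without GM replicate 2, the library with the highest sum of its group. With the replicate number as a block these medians were 0.38 and -0.37, and by number the GM sums lay above the CTRL sums in 3 of 3 and the PIO+GM sums below the GM sums in 2 of 3, although the numbers are not shown to pair the libraries. That of PIO against CTRL was 0.28 without PIO replicate 2, 0.29 without CTRL replicate 1 and 1.29 without CTRL replicate 2.

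By edgeR and by DESeq2 no member passed in any of these 4 comparisons. Of all genes, edgeR had 0.0123% higher and 0% lower in GM against CTRL, 0.0368% and 0.116% in PIO against CTRL, 0.0245% and 0.0858% in PIO+GM against GM, and 0.0674% and 0.00613% in PIO+GM against PIO. At an unadjusted p under 0.05, no member was higher or lower in GM against CTRL (0.784% and 0.883% of all genes) or in PIO+GM against GM (2.73% and 4.74%). In PIO against CTRL 3 were higher and 1 lower (3.42% and 6.51%), and in PIO+GM against PIO 0 were higher and 2 lower (1.84% and 0.748%).

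PIO+GM against PIO at 24 h was the drug comparison in which most members separated. The PIO+GM libraries lay below all PIO libraries for 28 members, against 4.71% of all genes. The summed level of all members was 997, 815 and 736 CPM in PIO+GM and 1188, 1602 and 1013 CPM in PIO, without overlap, a ratio of 0.670 ± 0.192 (SD, n = 3 against 3). Over the members sharing under 20% of their windows the ratio was 0.774 ± 0.184, and the libraries overlapped, as they did over those under 20% by both lengths. H4c3, an H4 gene, had the lowest p, with 30.5, 49.3 and 34.0 CPM in PIO and 27.0, 21.1 and 18.5 CPM in PIO+GM (-0.77, SE 0.36, edgeR adjusted p = 1.00). H4c8 measured 77.4, 69.7 and 57.2 CPM in PIO+GM, below its 3 PIO libraries (-0.91, SE 0.49). The median over the members was -0.41 without PIO replicate 2. The other RNAs without a poly(A) tail differed in the same direction in this comparison, from 7423 to 11063 CPM in PIO and from 5263 to 6582 CPM in PIO+GM, and their part in the result was not tested.

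H2bc21 was the member of lowest fold change in PIO against CTRL at 24 h. It measured 19.8, 19.2 and 18.1 CPM in CTRL and 15.8, 12.7 and 12.2 CPM in PIO, without overlap, the one member with a fold change below 0 there (-0.49, SE 0.18, edgeR adjusted p = 0.352). The lowest p in GM against CTRL was that of H1f4, with 61.3, 90.6 and 65.2 CPM in CTRL and 80.1, 111 and 92.0 CPM in GM, which overlapped (0.38, SE 0.24, edgeR adjusted p = 1.00), with values from 0.25 without GM replicate 2 to 0.58 without CTRL replicate 2. In PIO+GM against GM it was that of H1f2, with 56.6, 110 and 68.7 CPM in GM and 60.8, 42.2 and 43.2 CPM in PIO+GM (-0.68, SE 0.36, edgeR adjusted p = 0.732), which was -0.36 without GM replicate 2.

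Interaction terms asked whether an effect differed with the other drug or with time. No member and 0% of all genes passed in any of the 5 interactions by edgeR, and no member by DESeq2. The effect of PIO with GM minus that without GM at 24 h had a median of -1.07 over the members, with 3 members lower at an unadjusted p under 0.05 (0.264% of all genes), of which H2ac6 had -1.62 (adjusted p = 1.00). The effect of PIO at 24 h minus that at 6 h had 2, H2bc4 and H2bc21 (3.29% of all genes), the latter with -0.58 (SE 0.26, adjusted p = 0.898). The other 3 interactions had none.

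Base composition moved with several of these comparisons. GC content was that of the longest GENCODE transcript, which can be longer than the counted part. For H1f3 it was 39.8% over 7425 bases, against a length of 776 in the counts table. The trend removed is therefore uncertain for such members. The tested members had a median GC content of 58.8%, against 49.8% over 15390 genes with a value. Across these genes, which are not independent replicates, Spearman's rho between GC content and log2 fold change was -0.39 in PIO against CTRL, -0.62 in PIO+GM against GM and -0.46 in PIO+GM against PIO at 6 h. At 24 h rho was 0.26 in GM against CTRL, 0.12 in PIO against CTRL, -0.24 in PIO+GM against GM and -0.33 in PIO+GM against PIO. For the effect of PIO with GM minus that without GM at 24 h it was -0.41. It was 0.03, 0.07, 0.31 and 0.35 for time in CTRL, GM, PIO and PIO+GM. With the GC trend removed, the time counts were 6, 16, 15 and 3 (10.2%, 27.1%, 25.4% and 5.08% of the members, against 16.8%, 15.1%, 14.5% and 16.6% of all genes) and the medians 0.71, 1.11, 1.07 and 0.52 in CTRL, GM, PIO and PIO+GM, and the median of PIO+GM against GM at 6 h turned from -0.17 to 0.19. Of the related lists, 2 genes passed in a drug comparison, both in PIO+GM against GM at 6 h: Prim1, a primase subunit, was higher (0.76, edgeR adjusted p = 0.0372) and H2aj, a replacement H2A, lower (-0.78, 0.0490).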

How the data were processed

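RNA of 24 libraries (8 groups of 3) was sequenced as single reads of 76 bases. The authors mapped the reads to mm10 with RNA-STAR 2.5.2a, counted those starting within a RefSeq exon with qCount of QuasR, and deposited raw counts per Entrez gene with a column of gene lengths in bases. Strand use and how reads matching several places were counted are not given in the sources used here, and the labels and the methods name different TruSeq stranded kits. No per-sample column was left unused (0).

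Counts were fitted in R 4.3.3 with edgeR 4.0.16 (TMM factors between 0.961 and 1.04, filterByExpr, a mean for each group, common BCV 0.225, quasi-likelihood F-test), with Benjamini-Hochberg adjustment over 16317 genes and a threshold of 0.05. SE was the log2 fold change divided by the root of F. DESeq2 1.42.0 served alternatives, and Python 3.11.15 with pandas 2.3.3 and matplotlib 3.10.9 the summaries. The fit was tested on simulated data. No replicate pair agreed within sampling noise (chi-square per gene from 10.2 to 78.8).

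The members and gene lists were chosen with earlier results of these data known. Named were members past the threshold in a drug comparison, up to 6 of the largest changes with time, the member with most counts in each class and the lowest p of each drug comparison, and, of each list, up to 3 genes per comparison past the threshold with the lowest p. Symbols were matched for 24380 identifiers. With 3 libraries against 3, an exact two-sided permutation test cannot go below p = 0.100, so none is given for sums.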

Additional observations from a re-analysis of the deposited data

How the results depend on the processing

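No count or call changed direction under the alternatives run, while the medians over the members of 5 of the 8 drug comparisons changed sign with 1 library left out, as given above. For the 4 time comparisons the count of members past the threshold moved by more than 1.5 times in 10 of 36 values under other settings and in 19 of 24 with one library left out. For the drug comparisons, mostly at 0, it moved in 5 of 72 and 7 of 48. For PIO against CTRL at 6 h the count went from 1 to 0 without the filter, in a fit of only the libraries compared and with any one library left out (0 to 0). For PIO+GM against GM at 6 h it went from 0 to 1 with DESeq2, with the replicate block, with the GC trend removed in a fit with replicate block, and without PIO+GM replicate 1 (0 to 1). For time in CTRL it was 4 without the filter and 3 to 11 with one library left out. For time in GM it was 21 with DESeq2, 24 with GC trend removed and replicate block, and 2 to 26 with one left out. For time in PIO it was 14 with at least 10 counts in every library, 38 with the replicate block, 15 with the GC trend removed, 15 in a fit of only these libraries, and 5 to 36 with one left out. For time in PIO+GM it was 8 with DESeq2, 10 with the replicate block, 14 in a fit of only these libraries, and 2 to 5 with one left out. The median of the members for time in PIO+GM was 0.52 with the GC trend removed, and that of PIO+GM against PIO at 24 h lay between -0.90 and -0.41 with one library left out. The cause was not tested. Same-numbered libraries deviated together with a mean correlation of 0.113 at 6 h (lowest -0.305) and 0.380 at 24 h (lowest -0.0245), with 9 of 18 and 15 of 18 pairs over 0.1 and a mean of -0.0547 and -0.182 for libraries of other numbers. Since not every pair was over 0.1, the numbers are not shown to pair the libraries, although 8 of 12 and 11 of 12 libraries correlated best with their own number. The alternatives for the 5 interactions were chosen after seeing the data, and all gave 0. Depth limits members of low level, since 7 members had a library at 0 counts.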
